A study of Homo sapiens with 6 samples.

Results

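The genes described here encode the initiation and elongation factors of cytoplasmic translation, together with a few enzymes and repressors that carry the same name stems. They were chosen by name, not by value: every gene whose symbol began with EIF1 to EIF6, or with EEF1 or EEF2, was taken. EIF2AK2, EIF2AK3, EEF1E1 and 136 gene names of the pseudogene type were left out. This gave 67 of the 58825 genes measured. RNA was sequenced from NCI-H460 cells, a human large cell lung carcinoma line that the labels call a lung adenocarcinoma line, after lentiviral infection with a hairpin against GFP (NC-shRNA, 3 libraries) or against PRMT5 (PRMT5-shRNA, 3 libraries). Both groups therefore carried a lentiviral hairpin in the same cell line, and no uninfected cells are among the 6 libraries. The cells were stably silenced cultures described as biological replicates. The sources used here do not name which PRMT5 hairpin was sequenced, or whether the cells were a pool or a clone.

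PRMT5 is an enzyme that adds symmetric dimethyl groups to arginines of histones and other proteins. Translation initiation begins when eIF2 carries the initiator tRNA to the small ribosomal subunit. The eIF3 complex holds that subunit together with the scanning factors, while eIF4E, eIF4G and eIF4A bring it to the capped end of an mRNA. After the start codon is found, eIF5B joins the large subunit, and eEF1A, eEF2 and eIF5A then serve elongation. Cancer cells depend on this supply, and several of these factors are regulated by phosphorylation of eIF2 and of the eIF4E-binding proteins.

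Total counts ranged from 53531257 to 70518401 per library. PRMT5 transcript was at 32.6% of its NC-shRNA level in PRMT5-shRNA cells, with a log2 fold change of -1.62 (edgeR quasi-likelihood test, Benjamini-Hochberg adjusted p = 0.0063). All 4 lung adenocarcinoma markers examined (NKX2-1, NAPSA, SFTPB and SFTPC) had a mean below 0.1 FPKM in both groups. The summed level of 5 epithelial markers was 283 to 313 FPKM in NC-shRNA and 264 to 276 FPKM in PRMT5-shRNA libraries. Nearly all of it came from the keratins KRT8, KRT18 and KRT19. EPCAM had means of 0.50 FPKM in NC-shRNA and 0.41 FPKM in PRMT5-shRNA, and CDH1 of 0.14 and 0.20 FPKM. The summed level of 4 fibroblast genes was 2.39 to 2.55 FPKM against 3.39 to 3.92 FPKM, with COL1A2 below 0.1 FPKM in both groups, and that of 3 endothelial genes 1.36 to 1.48 FPKM against 1.91 to 2.41 FPKM. Of the endothelial genes, PECAM1 and VWF were below 0.1 FPKM in NC-shRNA cells, and VWF had 0 counts in each NC-shRNA library against 128, 105 and 122 counts in PRMT5-shRNA libraries (edgeR adjusted p = 0.034). The sum of 3 leukocyte genes was 5.11 to 7.08 FPKM against 5.05 to 5.82 FPKM, with 2 of the 3 below 0.1 FPKM in both groups. The part of these differences in the results below was not tested. In bulk RNA, fewer cells of a type and less RNA per cell cannot be told apart.

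No translation factor reached the adjusted threshold of 0.05 by edgeR, with a quasi-likelihood test and Benjamini-Hochberg adjustment. Of the 67 genes, 65 had enough counts to be tested among 20295 genes, of which 14 (0.069%) passed that threshold. The smallest adjusted p of a translation factor was 0.245, for EIF5B. At an unadjusted p under 0.05, 3 of the 65 (4.62%) were higher and 10 (15.4%) were lower in PRMT5-shRNA cells, where 6.54% and 6.29% of all genes tested were. The 3 were EIF4EBP1, EIF2S2 and EIF1, and the 10 were EIF5B, EIF1AX, EIF5A, EIF5AL1, EIF4A3, EIF3I, EIF2B1, EEF1A2, EIF3H and EEF1AKNMT. These counts depended on single libraries: 0 were higher without NC-shRNA replicate 2, 1 without PRMT5-shRNA replicate 2, and 17 were lower without NC-shRNA replicate 3. In CPM, the count scaled to library size, every PRMT5-shRNA library lay above every NC-shRNA library for 5 of them (7.69%, against 11% of all genes). Every one lay below for 18 (27.7%, against 10.7%). The shares of lower genes were thus above those of all genes tested and the shares of higher genes below them. This background was not matched for abundance: the median standard error was 0.18 over all genes tested and 0.076 over the 65. Over 14510 tested genes with a coding transcript, the Spearman correlation of log2 fold change with abundance was -0.21. EIF5A and EIF5AL1, whose coding sequences are near-identical, are both counted as lower. Overlap was read from CPM here and below, except in the paralog shares, and the count depended on the unit. In FPKM, libraries overlapped for EIF1AD, EIF2S1, EIF3B, EIF3F, EIF3H, EIF3J, EIF4H, EEF1A2 and EEF2KMT of the 18. EEF2 and EIF4EBP2 were higher without overlap in FPKM. The shares of all genes without overlap in FPKM were not computed. DESeq2 called 2 of the 65 at an adjusted p of 0.05, EIF5A and EIF5AL1.

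The fold changes of these genes were small. The median log2 fold change was -0.081, against 0.0075 over all genes tested, and for 60 of 65 (92.3%) the PRMT5-shRNA level lay less than 25% above or less than 20% below the NC-shRNA level. Over the 7593 genes in the middle 80% of the same abundance range this share was 90.5%, the median was -0.027, and 56.6% of values were negative. Of the 65, 48 (73.8%) had a negative and 17 a positive log2 fold change. The split depended on the scaling: with library totals in place of TMM factors it was 41 to 24 and with limma on log2(FPKM + 1) 38 to 27. These scalings also moved the median over all genes, to 0.057 and 0.039. Relative to that median, the translation factors were at -0.088 with TMM, -0.088 with library totals, -0.058 with limma and -0.032 with limma when the filter on low values was left out. Low-abundance genes bounded the range, which ran from -0.98 for EIF2S3B to 1.21 for EEF1AKMT3.

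**Figure D1:**
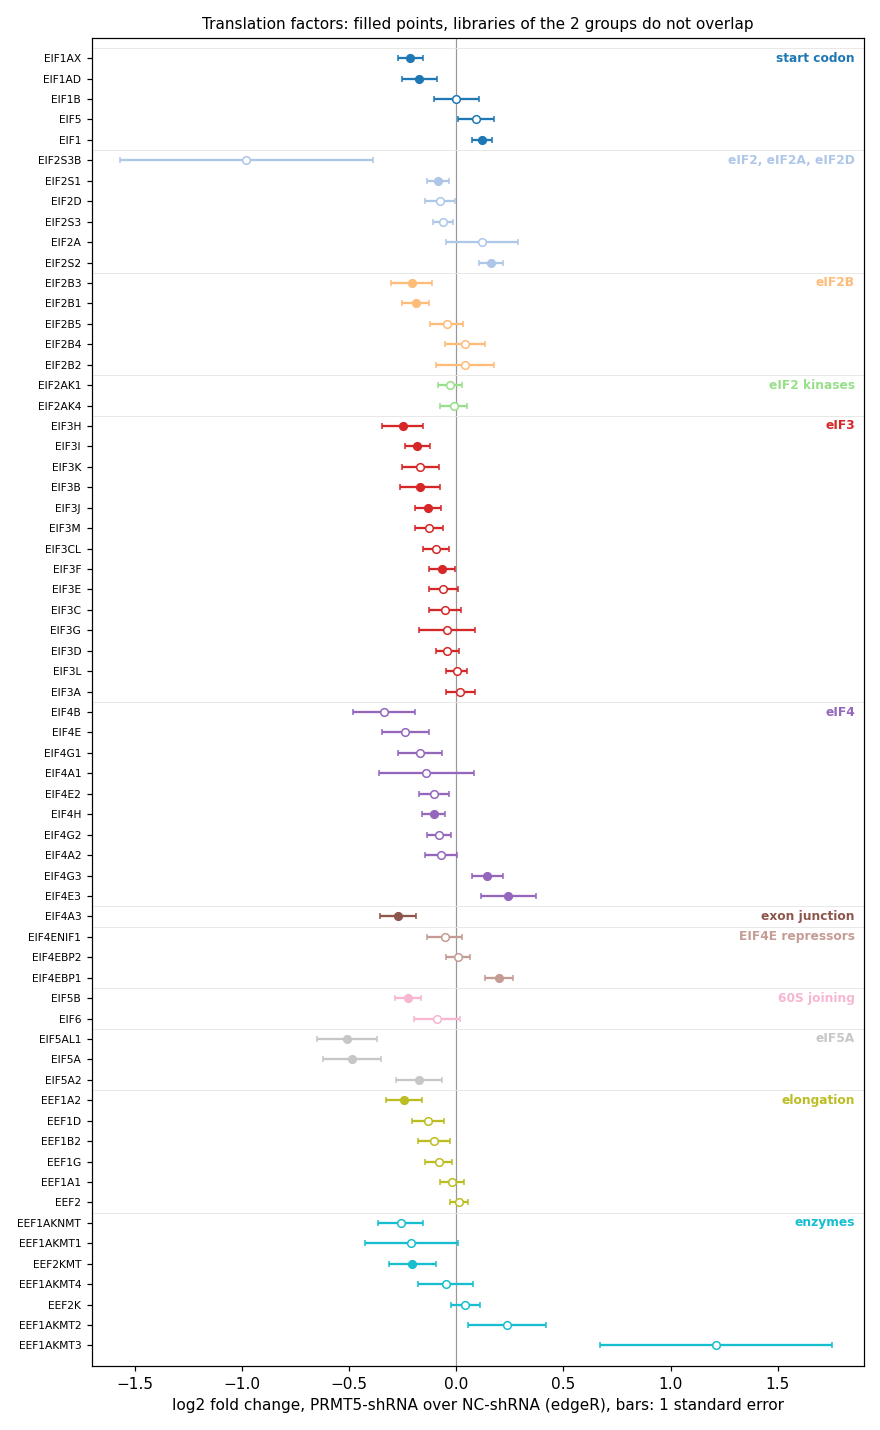
Log2 fold change of each translation factor, PRMT5-shRNA over NC-shRNA, from edgeR, grouped by role, with bars of 1 standard error. Filled points mark genes whose 3 PRMT5-shRNA libraries do not overlap the 3 NC-shRNA libraries in CPM. Most points lie within 0.3 of zero, and EIF5A and EIF5AL1 lie near -0.5. EIF1AY is counted in the text but not drawn.

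The gene with the lowest value among the abundant factors was EIF5A. It encodes the factor that carries hypusine, an amino acid made by modifying 1 lysine, and that helps the ribosome through stretches such as consecutive prolines. EIF5A (ENSG00000132507, GRCh38 chromosome 17, 7306999 to 7312463, plus strand) had 712, 607 and 509 CPM in NC-shRNA libraries against 466, 458 and 381 CPM in PRMT5-shRNA libraries. CPM is the count scaled to library size, after TMM scaling. All PRMT5-shRNA libraries lay below all NC-shRNA libraries. The means were 609 ± 101 and 435 ± 47.1 CPM (SD, n = 3 each), so that 71.4% of the NC-shRNA level remained. The log2 fold change was -0.49 with a standard error of 0.13 (adjusted p = 0.253 by edgeR). DESeq2 gave an adjusted p of 0.036 for it, and the adjusted p ranged from 0.036 to 0.502 over all the fits made.

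EIF5AL1 (ENSG00000253626, chromosome 10, 79512601 to 79516440, plus strand), a copy of EIF5A on another chromosome, was also lower in every PRMT5-shRNA library. It had 39.2, 34.1 and 26.8 CPM in NC-shRNA and 23.2, 24.4 and 22.6 CPM in PRMT5-shRNA libraries. Its log2 fold change was -0.51 with a standard error of 0.14 (edgeR adjusted p = 0.253, DESeq2 adjusted p = 0.042). The coding sequences of EIF5A and EIF5AL1 are both 462 bases long and 98.9% identical, with 5 differing bases and 3 differing amino acids. The stretch below, bases 46 to 135 of each coding sequence, holds 3 of the 5 differences in capitals. It is shown because a read that ends before the first capital could come from either gene. It lies at chr17:7309681-7309770 for EIF5A and chr10:79512695-79512784 for EIF5AL1, on the plus strand of GRCh38, and was read from GENCODE release 29 transcripts.
EIF5A: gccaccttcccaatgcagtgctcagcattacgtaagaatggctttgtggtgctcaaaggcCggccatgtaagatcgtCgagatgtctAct
EIF5AL1: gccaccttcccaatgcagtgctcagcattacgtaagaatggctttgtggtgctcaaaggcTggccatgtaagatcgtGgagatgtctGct
Counted from 1 at the first base of the start codon, with EIF5A first, these are C106T, C123G and A133G. The count of EIF5AL1 was between 4.98% and 5.95% of that of EIF5A in every library, and how many of its counts came from EIF5A reads was not tested. With both genes' counts added together, the log2 fold change was -0.49 (adjusted p = 0.25 by edgeR).

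EIF5A2, the paralog of EIF5A on chromosome 3, was much less abundant. It had 9.77, 9.92 and 9.06 CPM in NC-shRNA and 8.54, 8.81 and 8.14 CPM in PRMT5-shRNA libraries, which did not overlap. Its log2 fold change was -0.17 with a standard error of 0.11 (adjusted p = 0.538 by edgeR). The 3 genes of the family summed to 227, 199 and 170 FPKM in NC-shRNA and 158, 155 and 131 FPKM in PRMT5-shRNA libraries. The enzymes that make hypusine were also measured: DHPS, which starts the modification, had overlapping libraries, and DOHH, which completes it, had 10.5, 7.28 and 8.11 CPM in NC-shRNA against 7.16, 6.83 and 7.21 CPM in PRMT5-shRNA libraries (adjusted p = 0.493 by edgeR). DHPS was at 13.3, 13.9 and 8.18 against 10.8, 6.25 and 11.1 CPM (adjusted p = 0.675 by edgeR).

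**Figure D2:**
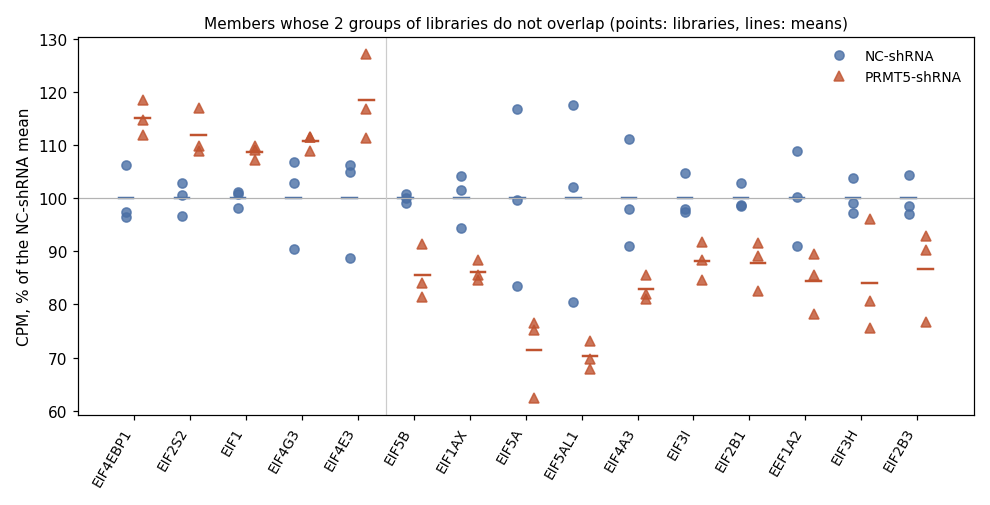
CPM of each library as a percentage of the gene's NC-shRNA mean, for the 5 higher and the 10 lower translation factors with the smallest p among those whose groups do not overlap. Blue circles are NC-shRNA and red triangles PRMT5-shRNA libraries, with lines at the means. EIF5A and EIF5AL1 lie furthest below the NC-shRNA mean, at 71.4% and 70.2%.

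Among the factors of scanning and start codon choice, EIF1AX and EIF1 differed in opposite directions. EIF1AX, which promotes scanning and fixes the initiator tRNA in the ribosome, had 201, 206 and 187 CPM in NC-shRNA and 175, 168 and 169 CPM in PRMT5-shRNA libraries. The groups did not overlap, with a log2 fold change of -0.21 and a standard error of 0.0586 (adjusted p = 0.251 by edgeR). EIF1, which keeps the ribosome open until the start codon pairs, had 439, 426 and 437 CPM against 465, 474 and 477 CPM. Its log2 fold change was 0.12 with a standard error of 0.0457 (adjusted p = 0.35 by edgeR), and its groups did not overlap either. EIF5, which makes eIF2 hydrolyse its GTP at the start codon, had 110.1, 104 and 123 CPM against 118, 128 and 113 CPM. The EIF5 libraries of the groups overlapped, with a log2 fold change of 0.093 (adjusted p = 0.691 by edgeR). Of the 6 genes in this set, 3 had a negative and 3 a positive value. EIF1AY, the Y-linked copy of EIF1AX, is counted here and not described.

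The log2 fold changes of the eIF2 subunits differed in sign, and none reached the adjusted threshold by edgeR. EIF2S2, the beta subunit, had 242, 252 and 257 CPM in NC-shRNA and 275, 272 and 292 CPM in PRMT5-shRNA libraries. Every PRMT5-shRNA library was higher, with a log2 fold change of 0.16 and a standard error of 0.0552 (adjusted p = 0.312 by edgeR). EIF2S1, the alpha subunit that the stress kinases phosphorylate, had 156, 155 and 161 CPM against 145, 152 and 148 CPM. Its libraries did not overlap in the other direction, at a log2 fold change of -0.085 (adjusted p = 0.536 by edgeR). EIF2S3, the gamma subunit, had a log2 fold change of -0.062 with overlapping libraries (adjusted p = 0.639 by edgeR). EIF2S3B, a copy of EIF2S3 with 26.8% of its 50-base stretches in common with it, had 11.2, 10.1 and 34.6 CPM against 12.1, 4.13 and 12.2 CPM. Its low fold change of -0.98 (adjusted p = 0.531 by edgeR) came with a single high NC-shRNA library and overlapping groups.

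eIF2B recharges eIF2 with GTP, and its 5 subunits had log2 fold changes between -0.21 and 0.041. EIF2B1 had 105, 101 and 101 CPM in NC-shRNA and 93.7, 91.2 and 84.5 CPM in PRMT5-shRNA libraries, without overlap. Its log2 fold change was -0.19 with a standard error of 0.0629 (adjusted p = 0.305 by edgeR). EIF2B3 was likewise lower in each PRMT5-shRNA library, at 37.2, 35.1 and 34.6 against 32.1, 33.1 and 27.3 CPM (log2 fold change -0.21, edgeR adjusted p = 0.417). EIF2B5, the catalytic subunit, had 74.7, 65.6 and 64.2 against 65.2, 67.4 and 65.7 CPM, with a log2 fold change of -0.044 that was 0.0064 with library totals. Of the kinases that phosphorylate EIF2S1, EIF2AK1 and EIF2AK4 had log2 fold changes of -0.028 and -0.012, which were 0.022 and 0.037 with library totals. EIF2AK2 and EIF2AK3, the kinases that respond to double-stranded RNA and to unfolded proteins, had log2 fold changes of -0.036 and -0.023 (edgeR adjusted p = 0.842 and 0.922). All 4 kinases had overlapping libraries.

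For eIF3, 12 of the 14 genes had a negative log2 fold change, with a median of -0.081 and a range from -0.25 to 0.020. With library totals 10 of 14 were negative, and with limma on log2(FPKM + 1) 9 of 14. Below the median of all genes under each of these scalings were 13, 13 and 12 of the 14. In CPM, libraries did not overlap for 5 of the 14, all lower (EIF3B, EIF3F, EIF3H, EIF3I and EIF3J). Of all genes tested, 10.7% lay lower without overlap and 11% higher. In FPKM, the libraries of EIF3B, EIF3F, EIF3H and EIF3J overlapped, and those of EIF3I did not. EIF3I, a subunit built of WD repeats, had 279, 259 and 261 CPM in NC-shRNA and 235, 244 and 225 CPM in PRMT5-shRNA libraries, for a log2 fold change of -0.18 and a standard error of 0.0585 (adjusted p = 0.301 by edgeR). EIF3H had 228, 224 and 239 CPM against 174, 185 and 221 CPM. The third PRMT5-shRNA library of EIF3H lay just under the NC-shRNA libraries, and its log2 fold change was -0.25 with a standard error of 0.0943 (adjusted p = 0.345 by edgeR). EIF3A, the large subunit that scaffolds the complex, had 568, 628 and 638 against 608, 594 and 657 CPM, which overlapped (log2 fold change 0.020, edgeR adjusted p = 0.93). EIF3C and EIF3CL are near-identical copies: 97.2% of the 50-base stretches of EIF3CL also occur in EIF3C, so their separate values of -0.053 and -0.094 are uncertain. Added together they gave -0.074 (adjusted p = 0.678 by edgeR).

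The genes named EIF4, other than EIF4A3 and the repressors of EIF4E, were taken as 1 set by name. Of the 10 tested, 8 had a negative log2 fold change, with TMM, library totals or limma on log2(FPKM + 1). EIF4E, which binds the cap, had 53.0, 59.7 and 47.2 CPM in NC-shRNA and 45.7, 41.2 and 48.8 CPM in PRMT5-shRNA libraries. The groups overlapped, with a log2 fold change of -0.24 and a standard error of 0.11 (adjusted p = 0.415 by edgeR). EIF4G1, the main scaffold, had 696, 750.3 and 573 CPM against 621, 618 and 558 CPM, which also overlapped (log2 fold change -0.17, edgeR adjusted p = 0.54). EIF4G3, its paralog, had 118, 134 and 139 CPM against 142, 145 and 145 CPM. Every PRMT5-shRNA library of EIF4G3 was above the NC-shRNA libraries, by a log2 fold change of 0.15 (adjusted p = 0.452 by edgeR). EIF4E3, an atypical cap-binding relative of EIF4E, had 7.81, 6.52 and 7.71 CPM against 8.17, 8.58 and 9.34 CPM, again without overlap (log2 fold change 0.24, edgeR adjusted p = 0.466). EIF4B, an activator of the helicase, was at 79.1% of its NC-shRNA mean with overlapping libraries, 1299, 1274 and 1082 against 801, 1171 and 917 CPM (adjusted p = 0.393 by edgeR).

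EIF4A1, the helicase that unwinds the leader of mRNAs, had 762, 434 and 668 CPM in NC-shRNA and 550.2, 680.0 and 462 CPM in PRMT5-shRNA libraries. On its own it overlapped widely, with a log2 fold change of -0.14 and a standard error of 0.22 (adjusted p = 0.833 by edgeR). EIF4A1 (GRCh38 chromosome 17, 7572706 to 7579005, plus strand) overlaps most of its length with SENP3-EIF4A1, an annotated gene that joins SENP3 to EIF4A1 on the same strand from 7563287 to 7578715. SENP3-EIF4A1 was credited with 2319, 34652 and 11233 counts in NC-shRNA against 5896, 9118 and 9386 in PRMT5-shRNA libraries. The NC-shRNA library with the fewest EIF4A1 counts, 30059, was the one with the most SENP3-EIF4A1 counts. Added together, the genes had 796, 933 and 849 CPM in NC-shRNA against 658, 809.7 and 625 CPM in PRMT5-shRNA libraries, a mean of 859 ± 69.2 against 698 ± 98.4 (SD, n = 3 each). The summed groups overlapped by 1 library. The log2 fold change of the sum was -0.30 with a standard error of 0.11 (adjusted p = 0.334 by edgeR). This sum was chosen after the values were seen. Adding AC016876.2 instead, which shares 33.8% of the 50-base stretches of EIF4A1, gave -0.12 (adjusted p = 0.858 by edgeR).

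**Figure D3:**
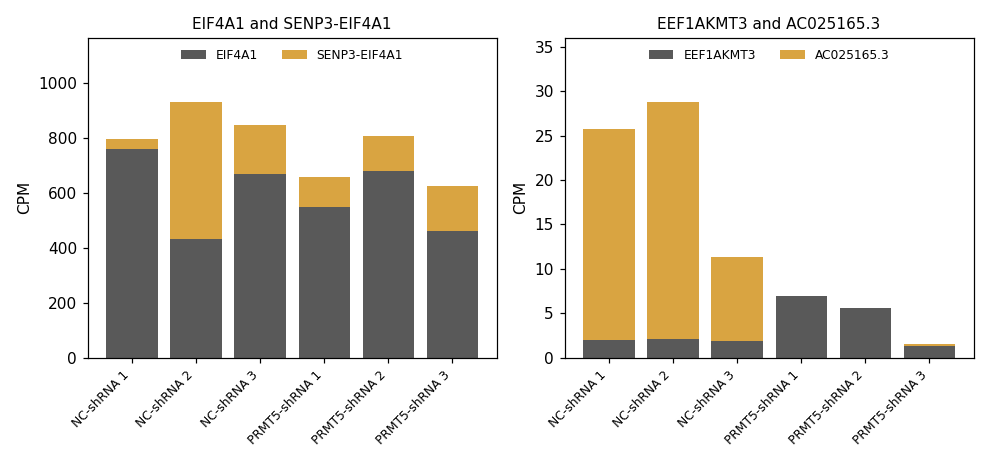
CPM credited to EIF4A1 and to SENP3-EIF4A1 (left) and to EEF1AKMT3 and AC025165.3 (right) in each library, stacked, with linear axes from 0. Dark bars are the translation factor genes and yellow bars the genes that overlap them on the same strand. In the second NC-shRNA library more counts went to SENP3-EIF4A1 than to EIF4A1, and AC025165.3 has 0 counts in 2 PRMT5-shRNA libraries.

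EIF4A3, a relative of EIF4A1, is a core part of the exon junction complex that marks spliced mRNA. It had 201, 177 and 165 CPM in NC-shRNA and 155, 148 and 146 CPM in PRMT5-shRNA libraries. There was no overlap, and the log2 fold change was -0.27 with a standard error of 0.0817 (adjusted p = 0.282 by edgeR). EIF4A3, EIF5A, EIF5B and EIF1AX kept an unadjusted p under 0.05 in all 16 other fits made, and EIF5AL1 in all 15 in which it was tested. Of the other genes past that threshold, EIF3I kept it in 15 of the 16, EIF2S2 in 14, EIF4EBP1 in 13, EIF2B1 in 12, EEF1A2 in 11, EIF1 in 9, EIF3H in 7 and EEF1AKNMT in 6. All these fits used the same libraries or a subset of them and are not independent. Those with summed counts left the counts of EIF4A3, EIF5B and EIF1AX unchanged.

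EIF5B, the GTPase that joins the large ribosomal subunit, had the smallest p of the 65 genes. Its NC-shRNA libraries lay close together, at 204, 208 and 206 CPM, and its PRMT5-shRNA libraries at 173, 167 and 188 CPM, all lower. The log2 fold change was -0.23 with a standard error of 0.0605 (adjusted p = 0.245 by edgeR), which left 85.5% of the NC-shRNA level. EIF6, which keeps the large subunit from joining too early, had 123, 98.7 and 97.8 CPM against 103, 92.9 and 105 CPM. The EIF6 libraries overlapped, with a log2 fold change of -0.091 (adjusted p = 0.764 by edgeR).

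EIF4EBP1 was the translation factor gene with the smallest p among those with a higher value. It encodes the repressor that holds EIF4E away from the scaffold until mTOR phosphorylates it. It had 77.8, 70.5 and 71.3 CPM in NC-shRNA and 81.8, 86.7 and 83.9 CPM in PRMT5-shRNA libraries. All PRMT5-shRNA libraries were higher, by a log2 fold change of 0.20 with a standard error of 0.0651 (adjusted p = 0.301 by edgeR). EIF4EBP2, the second repressor, had a log2 fold change of 0.0080 with overlapping libraries. EIF4EBP3, the third, had between 0 and 9 counts a library and was not tested. EIF4E1B was listed at 0 in every library.

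The 3 most abundant of the 67 were the elongation factors EEF1A1, EEF2 and EEF1G. EEF1A1, which brings aminoacyl-tRNA to the ribosome, alone made up 26.2% to 28.3% of the summed FPKM of the 67 genes, which in turn was 1.59% to 1.69% of the FPKM of all genes. It had 9857, 9012 and 8971 CPM in NC-shRNA and 9424, 9294 and 8735 CPM in PRMT5-shRNA libraries. EEF2, which moves the ribosome along the mRNA, had 3319, 3348 and 3328 CPM against 3344, 3457 and 3284 CPM. Both overlapped, with log2 fold changes of -0.020 (0.030 with library totals) and 0.013 (edgeR adjusted p = 0.913 and 0.929). EEF1A2, a close relative of EEF1A1 best known from muscle and neurons, had 606, 507 and 558 CPM against 477, 436 and 499 CPM. This was lower in every PRMT5-shRNA library, at a log2 fold change of -0.24 and a standard error of 0.0835 (adjusted p = 0.312 by edgeR). Subunits of the exchange factor of eEF1A, EEF1B2, EEF1D and EEF1G, had log2 fold changes of -0.10, -0.13 and -0.081 with overlapping libraries. Of the 50-base stretches of EEF1G, 94.7% also occur in AP002990.1, and the sum of both gave -0.095 (adjusted p = 0.599 by edgeR).

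**Figure D4:**
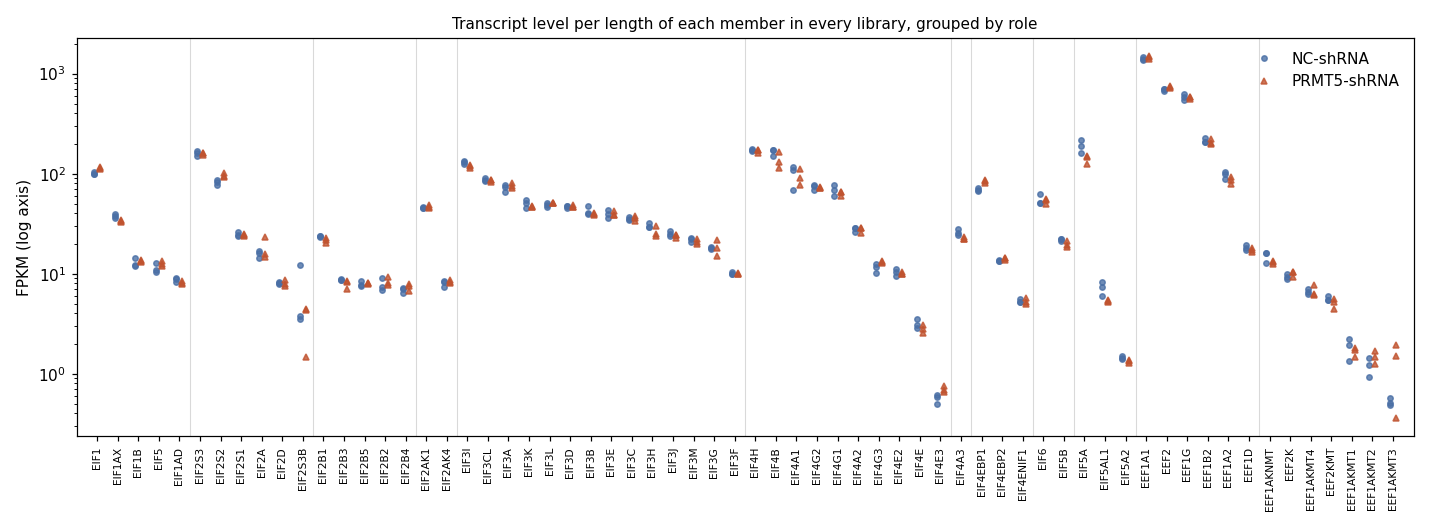
FPKM of each translation factor with an NC-shRNA mean above 0.1 FPKM, in every library, on a log axis, grouped by role. Blue circles are NC-shRNA and red triangles PRMT5-shRNA libraries. EEF1A1 has the highest level, near 1420 FPKM in NC-shRNA cells, and EEF1AKMT3 and EIF4E3 the lowest drawn, below 1 FPKM there.

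Enzymes that modify the elongation factors had low levels. EEF2K, the kinase that stops EEF2, had 86.3, 88.1 and 93.0 CPM in NC-shRNA and 94.5, 95.5 and 85.4 CPM in PRMT5-shRNA libraries, which overlapped (log2 fold change 0.043, edgeR adjusted p = 0.831). EEF1AKNMT, which methylates eEF1A at its amino end and at a lysine, had a log2 fold change of -0.26 (adjusted p = 0.369 by edgeR) with overlapping libraries. EEF1AKMT3, another lysine methyltransferase of eEF1A, had the highest fold change of all 65, at 1.21 with a standard error of 0.54 (adjusted p = 0.407 by edgeR). It had 130, 149 and 117 counts in NC-shRNA and 382, 388 and 75 in PRMT5-shRNA libraries, so that the third PRMT5-shRNA library lay below all others. EEF1AKMT3 (chromosome 12, 57771492 to 57782541) shares its strand with AC025165.3 (57773028 to 57787046), which reaches from EEF1AKMT3 into the neighbouring gene TSFM. AC025165.3 had 1603, 1850 and 590 counts in NC-shRNA and 0, 0 and 15 in PRMT5-shRNA libraries (adjusted p = 0.09 by edgeR). EEF1AKMT3 and AC025165.3 together had 25.8, 28.8 and 11.4 CPM in NC-shRNA against 6.995, 5.54 and 1.56 CPM in PRMT5-shRNA libraries. The sum had a log2 fold change of -2.23 with a standard error of 0.58 (adjusted p = 0.234 by edgeR). Its sign was that of AC025165.3 (log2 fold change -7.87), which held most of the summed NC-shRNA counts. Only 1.6% of the 50-base stretches of EEF1AKMT3 also occur in AC025165.3. A division of reads between EEF1AKMT3 and AC025165.3 was not tested. TSFM, the mitochondrial elongation factor gene next to EEF1AKMT3, had 37.0, 29.7 and 46.1 CPM in NC-shRNA and 54.8, 54.4 and 53.1 CPM in PRMT5-shRNA libraries (log2 fold change 0.52, edgeR adjusted p = 0.271). Its counts were 2482, 2061 and 2865 against 2993, 3802 and 3053. The NC-shRNA library with the fewest AC025165.3 counts, 590, had the most TSFM counts. TSFM overlaps AC025165.3 on the same strand, their sum was not fitted, and a division of reads between them was not tested. EEF1AKMT2 overlaps AC068896.1 on the same strand, and its log2 fold change of 0.24 became -0.062 in the sum of these genes.

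Within pairs of paralogs, the balance was compared per length as the share of the second gene in the pair's FPKM. For 2 of 7 pairs the libraries did not overlap. The share of EIF5A2 in EIF5A and EIF5A2 was 0.659%, 0.784% and 0.855% in NC-shRNA and 0.875%, 0.925% and 1.02% in PRMT5-shRNA libraries. The share of EIF4EBP2 in EIF4EBP1 and EIF4EBP2 was 15.8%, 16.8% and 16.1% against 14.9%, 13.9% and 14.7%. Exact two-sided permutation tests gave p = 0.1 for both, the smallest p that 3 libraries against 3 allow, and an adjusted p of 0.35 over the 7 pairs. For EIF4A1 and EIF4A2, EIF4E and EIF4E2, EIF4G1 and EIF4G3, EEF1A1 and EEF1A2, and EIF1 and EIF1B the libraries overlapped, with exact permutation p between 0.2 and 0.9.

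**Figure D5:**
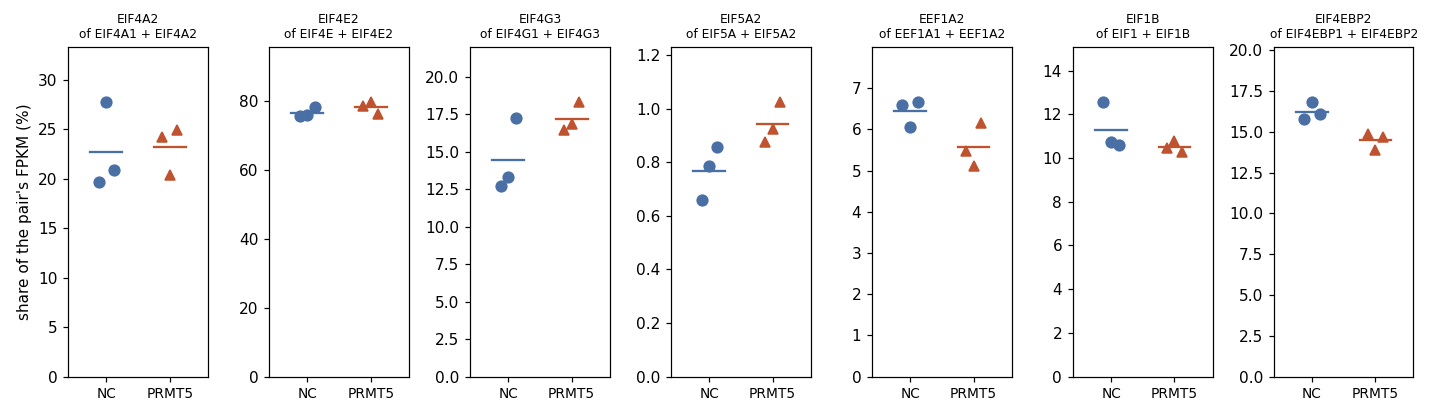
Share of the second gene in the summed FPKM of each of 7 paralog pairs, in percent, for the 3 NC-shRNA (NC, blue) and 3 PRMT5-shRNA (PRMT5, red) libraries, with lines at the means and each axis starting at 0. Libraries do not overlap for EIF5A2, higher in PRMT5-shRNA, and EIF4EBP2, lower.

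Many translation factor mRNAs are known to begin with a C followed by a run of pyrimidines, the terminal oligopyrimidine (TOP) motif through which mTOR controls their translation. Of 9 genes listed as such from background knowledge (EEF1A1, EEF1B2, EEF1D, EEF1G, EEF2, EIF3E, EIF3F, EIF3H and EIF4B), 8 had a negative log2 fold change with TMM scaling and 7 with library totals or limma on log2(FPKM + 1). Their median of -0.081 was that of all 65. EIF3H alone had an unadjusted p under 0.05. The starts of 3 of them are shown because they hold the motif, from RefSeq promoter windows of GRCh38.p14 of 30 bases around the start, with the pyrimidine run in capitals: chr6:73521013-73521042 on the minus strand, chr19:3985444-3985473 on the minus strand and chr12:53006456-53006485 on the plus strand.
EEF1A1: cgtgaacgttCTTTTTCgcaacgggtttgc
EEF2: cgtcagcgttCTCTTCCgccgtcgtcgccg
EIF4B: cttttgcgttCTCTTTCCCTCTCCCaacat
A C followed by pyrimidines, 5 or more bases in all, started within 10 bases of an annotated start in 28 of the 52 genes with a RefSeq promoter (53.85%) and in 41.97% of the 12065 tested genes with one. Of the 9 listed genes, 6 had a RefSeq promoter and 5 of these held such a run. The exception was EEF1G, whose run was 4 bases long. Of the genes shown, EEF1A1 and EEF2 had the 2 highest levels and differed between groups by less than their standard errors, and EIF4B had overlapping libraries.

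The letters CACGTG, the E-box that MYC and related factors can bind, were found between 250 bases before and 50 bases after a start in 13 of the 52 genes (25%). The motif reads the same on both strands. It was found in 12.23% of the tested genes with a RefSeq promoter, and in 18.84% of the 69 windows of the 52 genes against 9.1% of all windows of tested genes. The 12 tested genes that held it had a median log2 fold change of -0.17 (quartiles -0.215 and -0.062). The 38 without it had one of -0.073 (quartiles -0.137 and 0.0030), so the ranges overlapped. This difference was not tested, and the same medians were not computed over all tested genes. The 13 were EEF1AKMT4, EEF2K, EIF1B, EIF2B3, EIF3F, EIF3K, EIF4A3, EIF4B, EIF4E, EIF4EBP3, EIF4G1, EIF4H and EIF5A2. Windows of 4 genes are printed, those with non-overlapping lower libraries outside eIF3, with the motif in capitals. They lie at chr17:80147232-80147261 (minus strand), chr1:44986757-44986786 (minus), chr7:74174145-74174174 (plus) and chr3:170908807-170908836 (minus).
EIF4A3: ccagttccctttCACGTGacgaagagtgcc
EIF2B3: gacagagggacaCACGTGtcgaatgctcct
EIF4H: acgccgccgcacCACGTGggctgcagagcg
EIF5A2: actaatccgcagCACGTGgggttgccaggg
The motif began 121, 179, 199 and 187 bases before the start in these genes. TGATGNAA, searched on both strands because ATF4 binds such letters, occurred in EIF4E3 alone of the 52 (1.92%), against 2.92% of tested genes. A match describes letters and not a bound site.

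The 40 other genes of the pathway that were listed (termination, recycling, mitochondrial factors, mTOR and stress signalling) were tested in the same fit. By edgeR none reached an adjusted p of 0.05, and at an unadjusted p under 0.05 there were 3 higher (7.5%, against 6.54% of all genes) and 5 lower (12.5%, against 6.29%). The share of higher genes was thus near the background. Their median log2 fold change was -0.026. SESN2, a sensor through which leucine and stress signals restrain mTOR, had 35.9, 41.0 and 40.3 CPM in NC-shRNA and 57.0, 55.5 and 53.6 CPM in PRMT5-shRNA libraries. It was higher in every PRMT5-shRNA library, by a log2 fold change of 0.50 with a standard error of 0.0771 (adjusted p = 0.113 by edgeR). PPP1R15B, a subunit of the phosphatase that removes phosphate from EIF2S1, was higher by 0.18 on the log2 scale (adjusted p = 0.295 by edgeR). TSFM was the third, and the part of its overlap with AC025165.3 in this was not tested. The lower genes were ABCE1, which recycles ribosomes (log2 fold change -0.16), EEF1E1, a part of the multisynthetase complex (-0.30), PABPC4, a poly(A)-binding protein (-0.19), RPS6KB2, a ribosomal protein S6 kinase (-0.21), and MTIF3, a mitochondrial initiation factor (-0.30). None of their libraries overlapped between the groups, and their edgeR adjusted p ranged from 0.301 to 0.363.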

How the data were processed

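RNA-seq of 3 NC-shRNA and 3 PRMT5-shRNA libraries of NCI-H460 cells was used, as grouped by the sample labels. Per the labels, the authors used cutadapt 1.9, HISAT2 2.0.4 and StringTie 1.3.4d with GRCh38, while the methods text of the study names a mouse assembly. The authors deposited estimated counts per gene, which were whole numbers and not normalized, and FPKM values, normalized by the authors for length and library size. The libraries were stranded mRNA, and how the counting treated overlapping genes is not given in the sources used here, so reads of overlapping or copied genes may have been divided between them. Low counts gathered at 4: per library, 1214 to 1319 genes had a count of 4, 462 to 546 a count of 3 and 283 to 308 a count of 5.

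Counts were scaled by TMM, filtered by filterByExpr and tested over all genes with edgeR's quasi-likelihood test (edgeR 4.0.16, R 4.3.3) with Benjamini-Hochberg adjustment. Standard errors were derived from the F statistic. Paralog shares had exact two-sided permutation tests. Alternatives were DESeq2 1.42.0, other scalings and filters, limma 3.58.1 on log2(FPKM + 1 or 0.1), a replicate block, each library left out in turn, and, chosen after seeing the data, counts summed with genes that shared at least 10% of a gene's 50-base stretches in GENCODE release 29 or that overlapped it on the same strand with at least 10% of its counts. Fits were tested on simulated data. Pairs of libraries of a group had a chi-square per degree of freedom of at least 43.3, so none was a duplicate. P-values measure the spread between these cultures. Of 58825 identifiers, 58552 were in GENCODE release 29.

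The translation factors and the lists were chosen with earlier results of these data known. Genes named are up to 10 higher and 10 lower with the smallest p and no overlap between groups, 15 fixed genes, PRMT5, and pathway genes with p under 0.05 and no overlap, besides EIF2AK2, EIF2AK3 and EEF1E1. The others named (EIF2S3, EIF2S3B, EIF3C, EIF3CL, EIF4B, EIF5A2, EEF1AKMT2, EEF1AKMT3, EEF1AKNMT, EIF4EBP2, EIF4EBP3, EIF4E1B, the other non-overlapping eIF3 genes, the exchange factor subunits, DHPS, DOHH and genes in promoter lists or paralog pairs) were chosen after their values were seen.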

Additional observations from a re-analysis of the deposited data

How the results depend on the processing

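The number of translation factors past an adjusted p of 0.05 was 0 by edgeR and limma under every setting tried, and 2 by DESeq2 (EIF5A, adjusted p = 0.036, and EIF5AL1, adjusted p = 0.042). The 3 higher genes at an unadjusted p under 0.05 became 0 to 3 with 1 library left out, 0 without NC-shRNA replicate 2 and 1 without PRMT5-shRNA replicate 2. The 10 lower genes became 6 with limma on log2(FPKM + 1) or log2(FPKM + 0.1) and 7 to 17 with 1 library left out, 17 without NC-shRNA replicate 3. The median log2 fold change of -0.081 was -0.031 with library totals and -0.018 (pseudocount of 1), -0.0185 (pseudocount of 0.1) and -0.019 (no filter) with limma. The cause was not tested.

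Signs changed for genes near zero. EEF1A1 (-0.020) was at 0.030 with library totals, 0.0405 in each limma fit and -0.046 to 0.025 with 1 library left out. EIF2AK1 (-0.028) was at 0.022, 0.032 to 0.033 and -0.061 to 0.0048, EIF2AK4 (-0.012) at 0.037, 0.044 to 0.049 and -0.054 to 0.022, and EIF2B5 (-0.044) at 0.0064, 0.017 to 0.019 and -0.088 to 0.026. With 1 library left out, EEF2 ranged from -0.0085 to 0.029, EIF3A from -0.031 to 0.049, EIF4A1 from -0.34 to 0.034, EIF6 from -0.15 to 0.027, and the difference in the EIF4A2 share, 0.424 percentage points, from -1.14 to 2.93. EEF1AKMT3 alone was at 1.21, and its sum with AC025165.3 was at -2.23. AC025165.3 held most of the summed NC-shRNA counts.

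Libraries that shared a replicate number showed no common deviation (correlations of 0.0088, -0.037 and 0.059 over 11171 genes). With a replicate block, 0 translation factors passed the adjusted threshold, and 2 higher and 10 lower passed an unadjusted p under 0.05. Over all genes the block called 0 (1203 higher and 1179 lower at an unadjusted p under 0.05) in place of 14, and DESeq2 303 higher and 227 lower. At these depths EIF4EBP3 and EIF4E1B had too few counts to be tested.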
